A study of Homo sapiens with 11 samples.

Results

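Untreated MDA-MB-468 cells were compared with cells given tumour necrosis factor (TNF) alone, on 3 arrays of each, 6 of the 11 arrays of the series. MDA-MB-468 is an established triple-negative breast cancer line grown from a pleural effusion. The control cells had no treatment, and the TNF cells had TNF at 40 ng/ml for 24 h. The other 5 arrays held cells given apigenin, a plant flavone, at 40 µM for 24 h (2 arrays), and cells given TNF and apigenin together at those doses and that time (3 arrays). All cells were of this 1 line, with no genetic change made to any group, and were treated in a buffered salt solution according to the labels. The labels call the arrays triplicates without saying whether the cultures were separate, so a p-value here reflects only how far arrays of a group differ, and that spread may be technical.

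TNF is a cytokine that binds receptors on the cell surface, where adaptor proteins and ubiquitin chains assemble a platform for the IkB kinases (IKK). IKK marks the inhibitor IkB alpha for destruction, the transcription factor NF-kB enters the nucleus, and it switches on chemokine, adhesion and survival genes. Among the genes it switches on are its own inhibitors, IkB alpha and the ubiquitin-editing enzyme A20, so that the signal limits itself. In epithelial cells TNF is known for chemokine release and for acting with interferons.

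The unit is the deposited log2 value of a gene's probe set, and a change is the mean of the 3 TNF arrays minus the mean of the 3 control arrays. The median of all probe set means was 2.53, and a gene with a group mean near or below it was close to background there, so its change is given on the log2 scale with no fold. Of 22395 genes that could be named from a probe set listing 1 gene symbol, 15865 reached 2.53 on at least 2 of the 11 arrays and were tested. Adjusted p-values are those of limma after Benjamini-Hochberg adjustment over all 15865, and a gene was called at an adjusted p under 0.05. The array medians over the tested genes lay between 4.11 and 4.3 in the 6 control and TNF arrays, with control 2 the lowest, and the correlations between them were 0.973 to 0.987 within a group and 0.955 to 0.98 between groups. The median change over all genes was -0.0431.

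The arrays carried the markers of an epithelial line with abundant EGFR. EPCAM lay between 9.04 and 9.38 over the 6 arrays, CDH1, the gene of E-cadherin, between 8.04 and 8.54, KRT5 between 7.67 and 7.95 and EGFR between 10.74 and 11.14. The oestrogen and progesterone receptor genes were near or below the probe set median, at 1.93 to 2.72 for ESR1 and 1.41 to 1.54 for PGR. RB1, which this line is known to have lost, lay between 1.56 and 2.01. Summed over 16 macrophage markers the log2 values were 40.21 to 41.75 in control and 40.59 to 41.81 in TNF arrays, and over 13 T and B cell markers 31.72 to 31.85 and 32.09 to 32.81. Over 10 fibroblast markers the sums were 23.65 to 24.29 and 22.48 to 22.67, and over 11 endothelial markers 30.8 to 31.58 and 31.02 to 32.55. Of these 4 lists 6, 5, 6 and 2 members stayed below 2.53 on all arrays, and limma called CDH5 alone among their tested members. The part of such shifts in the results was not tested.

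TNF alone raised 75 genes and lowered 36, which is 0.473% and 0.227% of the genes tested, or 0.7% together. Each count of called list members below stands against these shares. All gene lists were chosen with earlier results of these data known, so no list's count or direction is independent evidence. The rises were larger than the falls: the raised genes had a median change of 1.28 (0.83 to 5.88), and the lowered genes had one of -1.15 (-0.82 to -1.86). Of the raised genes 15 changed by at least 2 on the log2 scale and 5 by at least 3, and no lowered gene fell by as much as 2. The raised genes went from a median level of 4.19 in control to 6.1, and the lowered genes from 5.7 to 4.34. In all 111 the TNF and control arrays did not overlap, which was so for 2117 genes tested (13.3%). Lack of overlap therefore adds nothing to a call, and most genes that have it were not called. An unadjusted p below 0.05 was given by limma for 1176 genes tested (7.41%), in either direction. Among the raised, 9 had a control mean below 2.53. In a bulk sample, fewer cells of a type and less RNA per cell cannot be told apart, and this holds for every fall given here. Protein-coding genes made up 72 of the raised and 33 of the lowered, with 1 long non-coding RNA gene, LINC01931, and 1 microRNA gene, MIR30C2, among the raised.

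**Figure D1:**
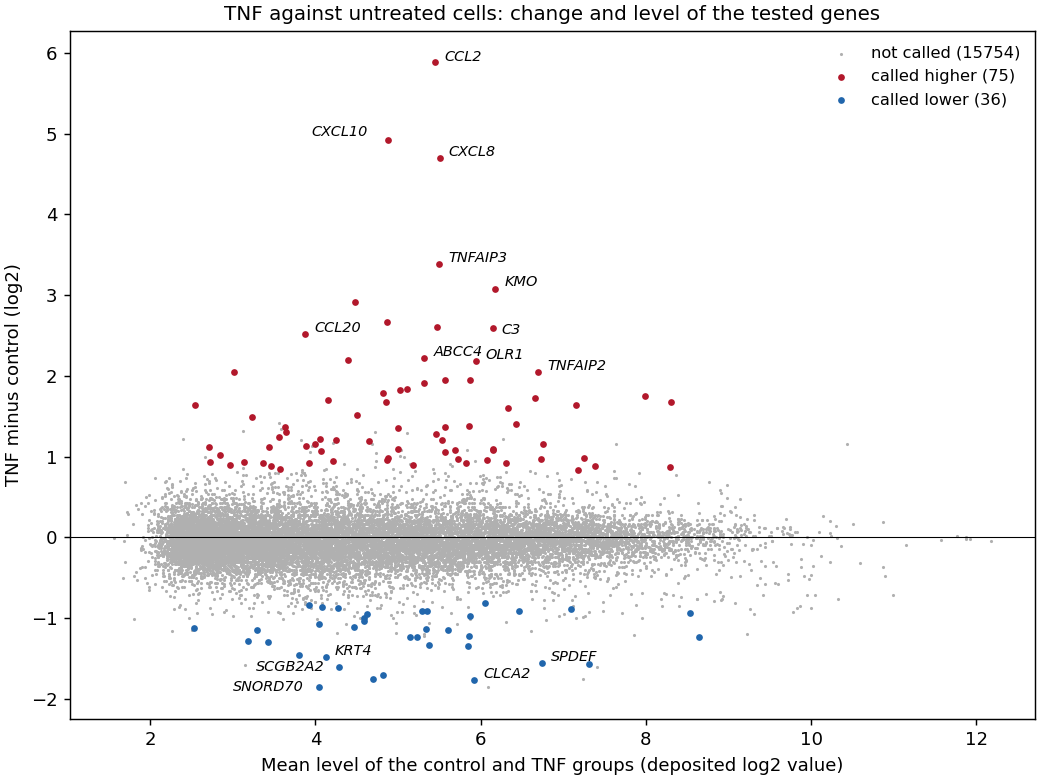
Change (TNF minus control, log2) of the 15865 tested genes against the mean level of the control and TNF groups (deposited log2 value), 1 point per gene, with the 75 genes called higher in red and the 36 called lower in blue. The red points reach 5.88, and no blue point lies below -1.86.

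The number of calls depended on single arrays. Without control replicate 2 or TNF replicate 2, 44 and 40 genes were called higher. The count of lowered genes fell from 36 to 13, 17 and 15 without control replicates 1, 2 and 3 and to 14, 20 and 13 without TNF replicates 1, 2 and 3. Of the genes called with all arrays, 38 of the 75 raised and 9 of the 36 lowered stayed called in each of these 6 fits. The 9 lowered genes were CLCA2, SCGB2A2, CRISP3, SPDEF, KRT4, TF, STAC2, GLYATL2 and SLC15A2.

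Among the feedback inhibitors of NF-kB, TNFAIP3 and NFKBIA rose, 2 of 13 tested members of that list, against 0.473% of all genes. TNFAIP3 encodes A20, which strips ubiquitin chains from the receptor platform. It read 3.86, 3.86 and 3.68 in control arrays 1, 2 and 3 and 7.36, 7.22 and 6.99 in TNF arrays 1, 2 and 3. The groups lay far apart, and the change was 3.39 (SE 0.19, 10.5-fold, adjusted p = 1.10e-07). NFKBIA, the gene of IkB alpha, read 5.65, 5.85 and 5.69 in control and 6.91, 7.55 and 6.93 with TNF. TNF array 2 was the highest, all TNF arrays were above all control arrays, and NFKBIA rose by 1.4 (SE 0.2, 2.64-fold, adjusted p = 0.00258). Just outside the threshold were the deubiquitinase gene CYLD, the IkB epsilon gene NFKBIE and TNIP1, which encodes a partner of A20. Their changes were 1.22 (SE 0.27, adjusted p = 0.0501), 1.15 (SE 0.26, adjusted p = 0.0603) and 0.88 (SE 0.2, adjusted p = 0.0721). None of the 3 had overlapping groups, which was so for 13.3% of all genes tested. Over the 13 genes the median change was 0.32, against -0.0431 for all genes, and BCL3, NFKBIB and NFKBIZ stood at -0.37, 0.32 and 0.03.

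None of the 5 NF-kB subunit genes was called by limma, and their median change was 0.75. At an unadjusted p below 0.05, 3 were higher, against 7.41% of all genes in either direction. NFKB2, the p100 precursor of the non-canonical pathway, read 4.8, 4.82 and 4.54 in control and 5.63, 5.9 and 5.34 with TNF, a change of 0.9 (SE 0.2, adjusted p = 0.0548). NFKB1 changed by 0.75 (SE 0.19, adjusted p = 0.12) with no overlap between groups, as in 13.3% of all genes tested, and RELB by 0.83 (SE 0.26, adjusted p = 0.279) with overlap. RELA, the subunit that carries the main transactivation domain, changed by -0.17 and REL by 0.15.

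IKBKE, the gene of the IKK-related kinase IKK epsilon, was the member of 11 IKK and upstream kinase genes that limma called. Its control arrays read 4.48, 4.05 and 4.05 and its TNF arrays 6.15, 5.97 and 5.97, a tight pair of groups well apart from each other. IKBKE rose by 1.84 (SE 0.19, 3.57-fold, adjusted p = 8.54e-05). The core kinases did not pass, with CHUK at 0.46, IKBKB at -0.27 and the scaffold IKBKG at -0.21. Of 17 TNF receptor and adaptor genes limma called 0. Higher with an unadjusted p below 0.05 were 4, against 7.41% of all genes in either direction. These were the kinase gene RIPK2 (0.81, SE 0.22, adjusted p = 0.171), TRAF3 (0.84, SE 0.24, adjusted p = 0.227), TNFRSF21 (0.53, SE 0.17, adjusted p = 0.305) and FAS (0.77, SE 0.26, adjusted p = 0.382). The receptor gene TNFRSF1A changed by -0.29. TNFRSF1B, RIPK1 and TRAF2 were not analysed here.

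The cells also raised the ligand itself. TNF messenger RNA read 3.9, 3.98 and 3.87 in control and 5.98, 5.85 and 5.29 in treated arrays, where array 3 was the lowest but stood well above control. TNF rose by 1.79 (SE 0.2, 3.46-fold, adjusted p = 0.000161). The gene has 8 probe sets, and their mean gave 1.83. TNFSF15, a ligand of death receptor DR3, read 2.97, 2.83 and 3.19 and then 4.63, 3.93 and 4.35, with no overlap, and rose by 1.31 (SE 0.2, 2.48-fold, adjusted p = 0.00322). Of the 7 other ligands tested none was called, and LTB changed by 0.55 (SE 0.17, adjusted p = 0.283) and TNFSF9 by -0.54 (SE 0.22, adjusted p = 0.528).

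The 3 genes with the highest changes were chemokine genes, although few chemokines were called. Of 8 tested CC chemokines 2 rose, against 0.473% of all genes. CCL2, which draws monocytes, read 2.57, 1.83 and 3.12 in control and 8.07, 8.6 and 8.48 with TNF. The control arrays scattered around background while the TNF arrays lay close together, and the change was 5.88 (SE 0.29, adjusted p = 2.79e-08). CCL20, the ligand of CCR6 on dendritic and Th17 cells, read 2.87, 2.88 and 2.12 and then 4.36, 5.32 and 5.75. Its TNF arrays were spread widely, all stood above control, and it rose by 2.52 (SE 0.35, adjusted p = 0.00129). The other 6 lay between -0.26 (CCL4) and 0.16 (CCL5 and CCL28), and the list median was 0.09.

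Of 10 tested CXC and CX3C chemokines 2 rose and 1 fell, against 0.473% and 0.227% of all genes. CXCL10, a ligand of CXCR3 on T cells, read 2.64, 2.21 and 2.4 in control and 7.27, 7.56 and 7.16 with TNF, from background to well above it. Its change was 4.92 (SE 0.18, adjusted p = 8.68e-10). CXCL8, the neutrophil chemokine interleukin 8, read 3.58, 3.2 and 2.69 and then 7.81, 7.92 and 7.84, so that its TNF arrays were nearly identical, and it rose by 4.7 (SE 0.24, 26.1-fold, adjusted p = 2.95e-08). CXCL17, a chemokine of mucosal epithelia, went the other way, from 4.9, 5.11 and 5.06 to 3.57, 4.13 and 4.03 with no overlap, and fell by 1.11 (SE 0.19, adjusted p = 0.0117). That call was lost without control replicate 2, control replicate 3 or TNF replicate 1, where the adjusted p reached 0.069. CXCL11 (1.41, SE 0.33, adjusted p = 0.0743), CXCL1 (1.04, SE 0.28, adjusted p = 0.167) and CXCL2 (1.06, SE 0.32, adjusted p = 0.267) did not pass. CXCL11 read 2.32, 2.99 and 3.24 in control and 3.48, 4.24 and 5.06 with TNF, spread widely in both groups. Its groups did not overlap, as in 13.3% of all genes tested. Of the 10 genes 6 were higher and 1 lower with an unadjusted p below 0.05, against 7.41% of all genes in either direction.

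**Figure D2:**
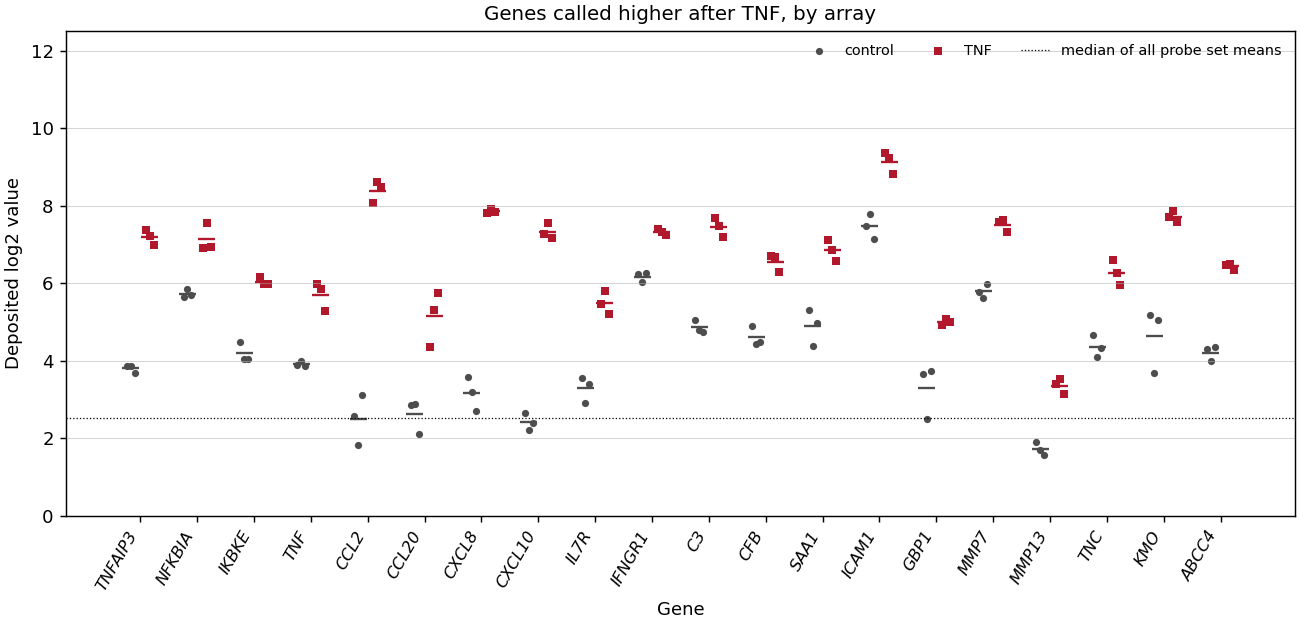
Deposited log2 value of 20 genes called higher after TNF on each control array (grey circles) and each TNF array (red squares), with a bar at each group's mean and a dotted line at the median of all probe set means, 2.53. In all 20 genes the 3 TNF arrays lie above the 3 control arrays. CCL2, CXCL10 and MMP13 start below the dotted line.

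The bases upstream of 6 raised genes are shown because NF-kB reads short sites in promoters. A kappa-B-like motif, GGNNNTTCC on either strand, was searched in RefSeq promoters (GRCh38.p14, 250 bases before to 50 after the start), along with an AP-1 motif, TGANTCA, and an interferon-type motif, TTTC followed by any 2 bases and TTTC. The 250 upstream bases are at chr4:76023498-76023747 (minus strand) for CXCL10, chr4:73740319-73740568 (plus) for CXCL8, chr2:227813592-227813841 (plus) for CCL20, chr6:137867009-137867258 (plus) for TNFAIP3, chr14:35404750-35404999 (minus) for NFKBIA and chr19:10270870-10271119 (plus) for ICAM1. Each is written 5′ to 3′ in the direction of its gene, and capitals mark the kappa-B-like matches.
CXCL10: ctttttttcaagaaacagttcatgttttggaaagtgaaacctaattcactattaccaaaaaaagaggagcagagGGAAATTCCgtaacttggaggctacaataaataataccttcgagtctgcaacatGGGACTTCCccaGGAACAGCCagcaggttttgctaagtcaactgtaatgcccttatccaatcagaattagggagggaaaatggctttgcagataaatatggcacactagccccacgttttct
CXCL8: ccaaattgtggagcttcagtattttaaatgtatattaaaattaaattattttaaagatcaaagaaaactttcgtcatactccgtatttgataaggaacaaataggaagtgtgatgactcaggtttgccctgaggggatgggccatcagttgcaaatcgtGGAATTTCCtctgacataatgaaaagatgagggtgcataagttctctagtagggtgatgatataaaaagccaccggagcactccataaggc
CCL20: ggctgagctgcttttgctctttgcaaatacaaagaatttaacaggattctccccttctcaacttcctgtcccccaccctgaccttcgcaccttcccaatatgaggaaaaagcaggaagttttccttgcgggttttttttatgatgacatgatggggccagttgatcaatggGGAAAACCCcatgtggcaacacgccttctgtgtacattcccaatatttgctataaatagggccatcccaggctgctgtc
TNFAIP3: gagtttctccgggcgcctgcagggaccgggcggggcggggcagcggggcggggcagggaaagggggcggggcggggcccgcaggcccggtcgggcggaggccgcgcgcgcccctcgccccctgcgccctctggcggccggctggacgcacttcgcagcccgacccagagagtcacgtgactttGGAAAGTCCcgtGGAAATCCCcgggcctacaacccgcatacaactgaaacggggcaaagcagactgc
NFKBIA: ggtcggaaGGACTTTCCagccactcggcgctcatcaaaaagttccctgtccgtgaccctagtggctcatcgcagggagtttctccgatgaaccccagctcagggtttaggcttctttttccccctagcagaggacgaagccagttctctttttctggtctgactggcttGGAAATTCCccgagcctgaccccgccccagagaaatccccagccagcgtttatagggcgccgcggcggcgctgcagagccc
ICAM1: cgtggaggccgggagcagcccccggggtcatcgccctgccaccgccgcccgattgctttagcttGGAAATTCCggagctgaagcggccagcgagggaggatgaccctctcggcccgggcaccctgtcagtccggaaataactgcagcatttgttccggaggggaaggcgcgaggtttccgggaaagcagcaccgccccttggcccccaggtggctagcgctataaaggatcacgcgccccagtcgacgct

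CXCL10 held 3 such matches, starting at -176, -122 and -110 from the start site, and 1 interferon-type match at -221. CXCL8 had 1 at -91, beside an AP-1 match at -137. TNFAIP3 had 2 that lie close together, at -67 and -55, NFKBIA had 2, at -242 and -81, and CCL20 and ICAM1 had 1 each, at -79 and -186. The matches of CXCL10 at -176, CXCL8 at -91, NFKBIA at -81 and ICAM1 at -186 read the same pattern on both strands and were counted once. Over the 57 raised genes with a listed promoter, 26 (45.6%) held a kappa-B-like match, against 3 of 23 lowered genes (13%) and 2651 of 11717 tested genes (22.6%). An AP-1 match stood in 10 raised genes (17.5%), 6 lowered genes (26.1%) and 5.25% of tested genes, and an interferon-type match in 6 raised genes (10.5%), 0 lowered genes and 2.68% of tested genes. Kappa-B-like and interferon-type matches shared bases in 7 tested promoters and in no called gene. The letters of the AP-1 motif do not allow it to share bases with either of the other motifs. These are descriptions of letters in a 300-base window, and CCL2, C3, SAA1 and MMP13 are among the 31 called genes with no promoter in the table.

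Secreted factors other than chemokines gave 2 calls among 20 tested interleukins and growth factors. INHBA, which encodes the activin A subunit, read 2.06, 2.08 and 1.82 in control and 4.04, 4.18 and 3.89 with TNF. Both groups were tight, the control group was below the probe set median, and INHBA rose by 2.05 (SE 0.26, adjusted p = 0.000499). EDN1, the gene of the vasoconstrictor endothelin 1, read 7.35, 7.1 and 6.9 and then 9.19, 8.96 and 8.44, without overlap, and rose by 1.75 (SE 0.21, 3.35-fold, adjusted p = 0.000454). BMP2 (0.78, SE 0.17, adjusted p = 0.05, not under the threshold), CSF1 (0.84, SE 0.19, adjusted p = 0.0553) and LIF (1, SE 0.23, adjusted p = 0.0675) were not called. IL6, IL1A and IL1B, the best known inflammatory cytokines of this list, did not reach 2.53 on enough arrays to be tested, and IL6 read 2.02 to 2.47 in control and 2.22 to 2.5 with TNF. IGFL1, a small secreted insulin-like growth factor relative, read 3.47, 2.4 and 3.23 and then 5.94, 6.26 and 5.63, and rose by 2.91 (SE 0.27, 7.52-fold, adjusted p = 4.64e-05). C1QTNF1, a secreted protein of the C1q and TNF fold family, rose by 1.82 (SE 0.19, 3.52-fold, adjusted p = 0.000112).

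Of 21 tested cytokine receptor genes 3 rose, against 0.473% of all genes. IL22RA2, the soluble decoy that binds interleukin 22, read 4.29, 3.91 and 4.31 in control and 6.74, 6.79 and 6.78 with TNF, and rose by 2.6 (SE 0.27, 6.07-fold, adjusted p = 8.54e-05). IL7R, the interleukin 7 receptor alpha chain, read 3.56, 2.91 and 3.4 and then 5.47, 5.79 and 5.21, a rise of 2.2 (SE 0.22, 4.6-fold, adjusted p = 7.21e-05). IFNGR1, the ligand-binding chain of the interferon gamma receptor, read 6.23, 6.03 and 6.25 and then 7.4, 7.32 and 7.25, and rose by 1.16 (SE 0.16, 2.23-fold, adjusted p = 0.00179). In all 3 genes the TNF arrays agreed closely and stood clear of control. IL6ST, the shared gp130 chain, changed by 0.8 (SE 0.18, adjusted p = 0.0598), and IL1R1 by -0.55 (SE 0.18, adjusted p = 0.31). The median of the list was 0.25.

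Complement and acute phase genes split, with 3 of 15 higher and 1 lower, against 0.473% and 0.227% of all genes. C3, the central complement component, read 5.06, 4.78 and 4.73 in control and 7.67, 7.48 and 7.18 with TNF, and rose by 2.59 (SE 0.19, 6.02-fold, adjusted p = 2.38e-06). CFB, the factor B that joins C3 in the alternative pathway convertase, read 4.89, 4.43 and 4.49 and then 6.69, 6.68 and 6.29, a rise of 1.95 (SE 0.19, 3.88-fold, adjusted p = 5.50e-05). SAA1, an acute phase apolipoprotein, read 5.32, 4.39 and 4.98 and then 7.11, 6.86 and 6.58, and rose by 1.95 (SE 0.23, 3.87-fold, adjusted p = 0.000336). SAA1 has a near-identical neighbour, SAA2, whose probe set was not analysed here, so the source of the SAA1 signal is uncertain. TF, the gene of the iron carrier transferrin, fell by 1.33 (SE 0.18, 2.52-fold, adjusted p = 0.00114), from 6.05, 5.89 and 6.19 to 4.97, 4.53 and 4.62. None of these 4 genes had overlapping groups, as was so for 13.3% of all genes tested. LCN2 and HP, other acute phase genes, stood at -0.34 and 0.03.

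Among 19 pattern recognition genes PGLYRP4 and RIGI rose and CD14 fell, where 0.473% of all genes rose and 0.227% fell. PGLYRP4, a secreted peptidoglycan-binding protein, read 3.91, 3.63 and 3.06 in control and 6.49, 6.2 and 5.92 with TNF, and rose by 2.67 (SE 0.24, 6.38-fold, adjusted p = 2.65e-05). RIGI, the cytoplasmic sensor of viral RNA, rose by 1.09 (SE 0.21, 2.12-fold, adjusted p = 0.0293), and its relative IFIH1 changed by 0.91 (SE 0.2, adjusted p = 0.0548). CD14, the lipopolysaccharide co-receptor, read 6.3, 6.72 and 6.4 and then 5.35, 5.35 and 5.05, and fell by 1.22 (SE 0.2, 2.33-fold, adjusted p = 0.00829). The RIGI call was lost without control replicate 2 or 3 or TNF replicate 1 or 2 (adjusted p up to 0.154), and the CD14 call without control replicate 2 or TNF replicate 3 (up to 0.0564).

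Among interferon-stimulated genes GBP1 and IFI44L rose, 2 of 37 tested against 0.473% of all genes, and the median of the list was 0.22. GBP1, a large GTPase of cell-autonomous defence, read 3.66, 2.5 and 3.74 in control and 4.93, 5.08 and 4.99 with TNF. Control array 2 was low, the TNF arrays were tight, and GBP1 rose by 1.7 (SE 0.26, 3.25-fold, adjusted p = 0.00373). In a fit of the control and TNF arrays alone its adjusted p was 0.0653. IFI44L read 3.45, 3.12 and 3.66 and then 5.02, 4.45 and 4.24, and rose by 1.16 (SE 0.21, 2.23-fold, adjusted p = 0.0191). The call was lost without control replicate 1 or 2 or TNF replicate 1 or 2 (adjusted p up to 0.0995). Of the 37 genes 8 were higher and 1 lower with an unadjusted p below 0.05, against 7.41% of all genes in either direction. Widely used interferon markers gave 0.43 for MX1, -0.19 for ISG15, 0.41 for IFIT2 and 0.7 for IFIT1 (SE 0.23, adjusted p = 0.334). Among 10 interferon regulatory factor and STAT genes limma called 0 and 0 had an unadjusted p under 0.05, with IRF1 at 0.42.

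In antigen presentation 1 of 23 genes rose, against 0.473% of all genes. It was CTSS, the gene of the cathepsin that trims the class II invariant chain. It read 5.37, 4.77 and 5.36 in control and 6.46, 6.59 and 6.6 with TNF and rose by 1.38 (SE 0.19, 2.61-fold, adjusted p = 0.00127). At an unadjusted p below 0.05, 7 of the 23 were higher and 0 lower, against 7.41% of all genes in either direction. The peptide transporter gene TAP1 changed by 0.71 (SE 0.18, adjusted p = 0.12) and CD274, the gene of PD-L1, by 0.58 (SE 0.18, adjusted p = 0.31). Both were without overlap, as were 13.3% of all genes tested. Outside this list VTCN1, the gene of the inhibitory B7 family ligand B7-H4, fell by 0.94 (SE 0.2, 1.92-fold, adjusted p = 0.0437), from 9.06, 8.9 and 9.05 to 7.95, 8.22 and 8.02. That call was lost without any 1 of the 6 arrays (adjusted p up to 0.184). CD47, the "do not eat me" signal on the cell surface, rose by 0.87 (SE 0.19, 1.83-fold, adjusted p = 0.0477), a call also lost without any 1 of the 6 arrays (adjusted p up to 0.203).

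ICAM1, the leukocyte adhesion receptor, was the member called among 11 tested adhesion genes. It read 7.48, 7.78 and 7.14 in control and 9.35, 9.24 and 8.82 with TNF, without overlap, and rose by 1.67 (SE 0.21, 3.18-fold, adjusted p = 0.000457). VCAM1 read 1.67 to 1.77 on the 6 arrays, below the level tested.

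Matrix genes and their proteases rose in small numbers. MMP7, the matrilysin of epithelial cells, read 5.76, 5.62 and 5.99 in control and 7.59, 7.62 and 7.33 with TNF, and rose by 1.73 (SE 0.17, 3.31-fold, adjusted p = 7.21e-05). MMP13, a collagenase, read 1.9, 1.69 and 1.57 and then 3.4, 3.52 and 3.15, a change of 1.64 from a control group below background (SE 0.17, adjusted p = 9.58e-05). They were the 2 called of 13 metalloproteinase and inhibitor genes, whose median was 0.06, and MMP9 and TIMP1 stood at 0.19 and -0.1. TNC, the gene of tenascin C, read 4.66, 4.09 and 4.34 and then 6.59, 6.27 and 5.95, and rose by 1.91 (SE 0.21, 3.75-fold, adjusted p = 0.000188). TNC and the fibronectin receptor chain ITGA5 (0.88, SE 0.18, 1.84-fold, adjusted p = 0.0415) were 2 of 18 matrix and integrin genes, against 0.473% of all genes. Of the 18 matrix and integrin genes 6 were higher and 0 lower with an unadjusted p below 0.05, against 7.41% of all genes in either direction. ITGB6, ITGB8 and ITGAV, which pair into epithelial integrins that activate TGF-beta, changed by 0.74, 0.73 and 0.65. Their adjusted p-values were 0.111, 0.105 and 0.189, and they had no overlap, as had 13.3% of all genes tested. In the plasminogen and serpin list F3, the tissue factor gene, and TFPI2, a protease inhibitor, rose by 0.83 (SE 0.18, adjusted p = 0.0477) and 0.97 (SE 0.21, adjusted p = 0.0456). That is 2 of 11, against 0.473% of all genes. The calls of F3 and TFPI2 were lost without any 1 of the 6 arrays (adjusted p up to 0.227), and that of ITGA5 without any but TNF replicate 2 (up to 0.198).

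Several raised genes lay outside signalling. KMO, which hydroxylates kynurenine in tryptophan breakdown, read 5.19, 3.68 and 5.06 in control and 7.7, 7.87 and 7.57 with TNF. Control array 2 stood apart from the other two, no TNF array came near control, and KMO rose by 3.07 (SE 0.31, 8.41-fold, adjusted p = 7.21e-05). It was the called member of 6 kynurenine pathway genes, and KYNU, which acts beside it, changed by 0.43 (SE 0.18, adjusted p = 0.549). IDO1, the inducible entry enzyme, read 2.01 to 2.22 in control and 2.14 to 2.99 with TNF and was not tested. ABCC4, an exporter of cyclic nucleotides and prostaglandins, read 4.29, 3.98 and 4.36 and then 6.48, 6.49 and 6.33, and rose by 2.22 (SE 0.17, 4.65-fold, adjusted p = 4.65e-06). OLR1, a scavenger receptor for oxidised lipoprotein, rose by 2.18 (SE 0.21, 4.54-fold, adjusted p = 5.50e-05), TNFAIP2, named for its induction by TNF, by 2.05 (SE 0.2, 4.15-fold, adjusted p = 7.21e-05), and SGPP2, a sphingosine 1-phosphate phosphatase, by 1.68 (SE 0.2, 3.21-fold, adjusted p = 0.000258). TNFAIP2 was 1 of 5 tested genes of that name, and TNFAIP1 and TNFAIP8 stood at -0.01 and 0.3. PLA2G4C, a phospholipase, rose by 0.93 from background (SE 0.18, adjusted p = 0.0242) as 1 of 12 prostaglandin and lipid mediator genes, a call lost without any 1 of the 6 arrays (adjusted p up to 0.133), and PTGS2, the gene of cyclooxygenase 2, read 1.35 to 1.86 and was not tested.

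Of 21 apoptosis and survival genes 1 was called. GADD45A, a stress and growth arrest gene, rose by 0.88 (SE 0.17, 1.83-fold, adjusted p = 0.0317) from 6.99, 6.92 and 6.93 to 7.7, 7.9 and 7.87. The GADD45A call was lost without any 1 of the 6 arrays (adjusted p up to 0.155). BIRC2, an inhibitor of apoptosis recruited to the TNF receptor, changed by 0.49 (SE 0.2, adjusted p = 0.562) and the caspase 8 inhibitor CFLAR by -0.02. BIRC3 and SOD2, known targets of NF-kB, were not analysed here.

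The lowered genes included 7 of 26 luminal and secretory breast genes, against 0.227% of all genes, and 0 of the 26 rose. This list was drawn up with the falls of several members known, so its count is no independent evidence of its direction. CLCA2, a regulator of chloride currents, read 6.9, 6.75 and 6.76 in control and 4.92, 5.27 and 4.92 with TNF, and fell by 1.77 (SE 0.18, 3.41-fold, adjusted p = 7.21e-05). SCGB2A2, the gene of mammaglobin A, read 5.3, 4.64 and 5.32 and then 3.61, 3.65 and 3.18, and fell by 1.61 (SE 0.22, 3.04-fold, adjusted p = 0.00108). Both genes had groups far apart, with control array 2 of SCGB2A2 the lowest of its group. SPDEF, an ETS transcription factor of secretory epithelium, read 7.73, 7.48 and 7.34 and then 5.96, 6.19 and 5.72, a fall of 1.56 (SE 0.2, 2.96-fold, adjusted p = 0.000499). CRISP3, a secreted cysteine-rich protein, read 8.25, 8.14 and 7.89 and then 6.9, 6.66 and 6.02, and fell by 1.57 (SE 0.23, 2.96-fold, adjusted p = 0.00293). STAC2 read 4.08, 4.14 and 4.03 and then 2.88, 2.68 and 2.78, so that its TNF arrays came close to background, with a change of -1.3 (SE 0.15, adjusted p = 0.000258).

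Of the other 2 luminal genes, ANPEP, an aminopeptidase of the apical membrane, fell by 1.35 (SE 0.24, 2.54-fold, adjusted p = 0.0123). CYP4Z1, a cytochrome P450 of mammary tissue, read 5.62, 5.69 and 5.41 in control and 4.92, 3.14 and 3.4 with TNF. TNF array 1 stood near control and apart from the other two, and CYP4Z1 fell by 1.75 (SE 0.35, 3.37-fold, adjusted p = 0.0323). The ANPEP call was lost without control replicate 1 or 2 or TNF replicate 3 (adjusted p up to 0.0744), and the CYP4Z1 call without any but TNF replicate 1 (up to 0.162). The luminal regulators FOXA1, GATA3 and XBP1 did not pass, at 0.08, -0.57 (SE 0.23, adjusted p = 0.535) and -0.22, and the median of the list was -0.2.

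Keratins lay low as a list while 1 passed the test. KRT4, a keratin of stratified mucosa, read 5.17, 4.82 and 4.61 in control and 2.97, 3.78 and 3.42 with TNF, and fell by 1.48 (SE 0.24, 2.78-fold, adjusted p = 0.00603). The 10 tested keratins had changes between -1.48 and -0.11, with a median of -0.44 against -0.0431 for all genes. After quantile normalization and after a median shift all 10 also lay below 0, at medians of -0.40 and -0.39. In the deposited values 6 of the 10 were lower with an unadjusted p below 0.05, against 7.41% of all genes in either direction. KRT15, a basal keratin, changed by -0.93 (SE 0.21, adjusted p = 0.0721), KRT19 by -0.45 and KRT18 by -0.42. Among 18 squamous and S100 genes limma called 0 and 4 were lower with an unadjusted p below 0.05, S100A14 with a change of -0.56 (SE 0.16, adjusted p = 0.235) and S100A7 of -0.52 (SE 0.19, adjusted p = 0.446).

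**Figure D3:**
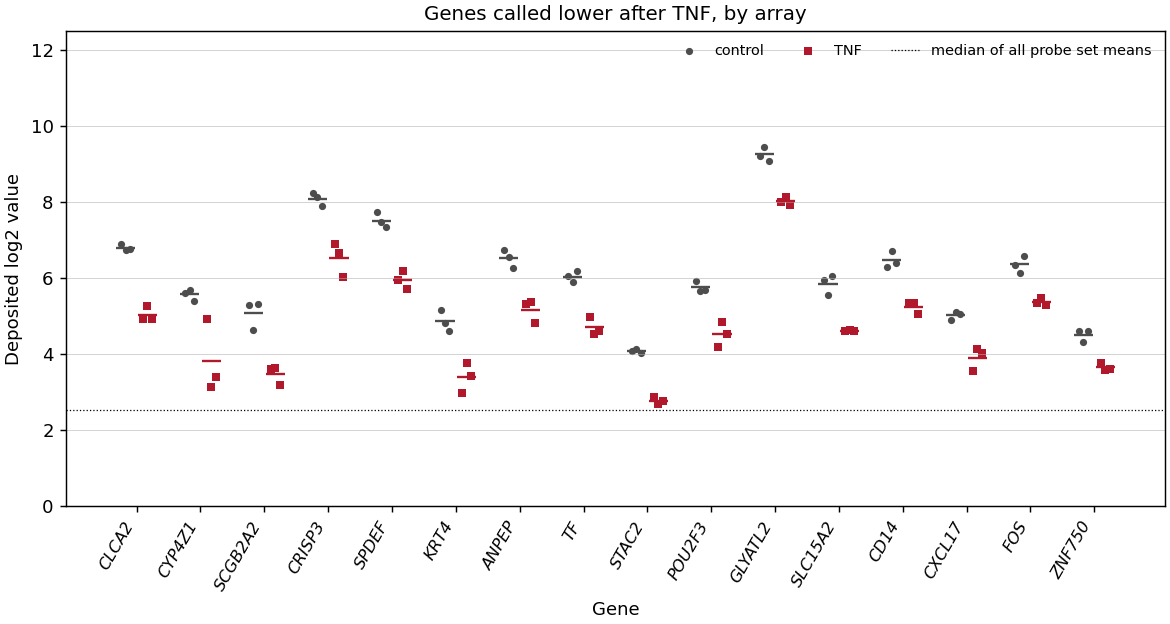
Deposited log2 value of 16 genes called lower after TNF on each control array (grey circles) and each TNF array (red squares), with a bar at each group's mean and a dotted line at the median of all probe set means, 2.53. In all 16 genes the 3 TNF arrays lie below the 3 control arrays, and in CYP4Z1 TNF array 1 (4.92) lies apart from the other two.

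Among the lowered genes outside these lists, GLYATL2, a glycine acyltransferase of lipid metabolism, read 9.23, 9.46 and 9.08 in control and 8, 8.14 and 7.92 with TNF, and fell by 1.24 (SE 0.19, 2.36-fold, adjusted p = 0.0034). SLC15A2, a peptide transporter, read 5.96, 5.55 and 6.05 and then 4.61, 4.63 and 4.61, and fell by 1.24 (SE 0.19, 2.35-fold, adjusted p = 0.00373). The TNF arrays were tight in both genes and lay below every control array. P2RY2, a nucleotide receptor, fell by 1.15 (SE 0.2, adjusted p = 0.0137), AKR1B10, an aldo-keto reductase, by 1.13 (SE 0.22, adjusted p = 0.0265), and PDZK1, a scaffold of membrane transporters, by 1.15 (SE 0.22, adjusted p = 0.0221). Each of these 3 calls was lost in at least 4 of the 6 fits without 1 array, AKR1B10 without any but TNF replicate 2, PDZK1 without any but control replicate 2, and P2RY2 without any but control replicate 2 or TNF replicate 2 (adjusted p up to 0.125, 0.121 and 0.0743). POU2F3, the regulator of tuft cells, fell by 1.24 (SE 0.27, adjusted p = 0.0492), a call lost without any 1 of the 6 arrays (adjusted p up to 0.216). FOS, the AP-1 subunit, was the member called of 19 AP-1 and immediate early genes. It fell by 0.98 (SE 0.21, 1.97-fold, adjusted p = 0.0477), from 6.35, 6.15 and 6.59 to 5.36, 5.49 and 5.3, and this call too was lost without any 1 of the 6 arrays (adjusted p up to 0.216). JUN and FOSL1 stood at -0.24 and 0.36. RASA4B, a Ras GTPase-activating protein gene with near-identical copies, so that its signal is uncertain, read 4.62, 4.1 and 4.87 in control and 2.5, 3 and 3.72 with TNF. It fell by 1.46 (SE 0.31, adjusted p = 0.0477), a call lost without control replicate 1 or 3 or TNF replicate 1 or 2 (adjusted p up to 0.21). The snoRNA genes SNORD70 and SNORD88C fell by 1.86 and 1.71 but had control arrays that disagreed, at 4.45, 5.99 and 4.49 for SNORD70 and 5.38, 6.42 and 5.21 for SNORD88C, with array 2 the highest in both. Their adjusted p-values were 0.0448 and 0.0317, and both calls were lost without control replicate 2, TNF replicate 1 or TNF replicate 3, among others (adjusted p up to 0.166 and 0.155).

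The cell cycle was covered by a G2/M and a G1/S list. Of 32 G2/M and mitosis genes limma called 0, while 2 were lower with an unadjusted p below 0.05, and the median was -0.05. Of 30 G1/S and DNA replication genes limma called 0, while 1 was lower with an unadjusted p below 0.05, and the median was -0.11. Over all genes tested 7.41% had such a p, in either direction. MKI67, the proliferation marker Ki-67, stood at -0.04, PCNA at 0.13 and CDC20 at -0.47 (SE 0.18, adjusted p = 0.448). The 11 tested histone genes lay between -0.92 and -0.05 with a median of -0.31, limma called 0, and 3 were lower with an unadjusted p below 0.05. After the median shift 1 of the 11 lay above 0 and the median was -0.26.

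Most other lists gave no calls by limma. Among 15 MAPK feedback genes the median was 0.17, with DUSP16 at 0.76 (SE 0.22, adjusted p = 0.211) and DUSP4 at -0.55 (SE 0.18, adjusted p = 0.333), and 2 had an unadjusted p under 0.05. The 5 EGFR family genes tested had a median of 0.06, and EGFR itself changed by 0.19 (SE 0.16, adjusted p = 0.901). Of 18 antioxidant and metallothionein genes 4 were lower with an unadjusted p below 0.05, among them SRXN1, the sulfiredoxin gene, at -0.88 (SE 0.22, adjusted p = 0.12) and MT1X at -0.69 (SE 0.22, adjusted p = 0.31). Hypoxia and glycolysis genes (20 tested), cholesterol and fatty acid synthesis genes (16) and unfolded protein response genes (20) had medians of -0.13, -0.04 and -0.05. In these 3 lists 2, 3 and 2 members had an unadjusted p under 0.05, SREBF1 at -0.63 (SE 0.17, adjusted p = 0.184) among them. Of all genes tested 7.41% had an unadjusted p under 0.05. Epithelial adhesion and mesenchymal transition genes gave 1 call in 16, the tight junction gene CLDN1 at 0.96 (SE 0.18, 1.95-fold, adjusted p = 0.0212), lost without any 1 of the 6 arrays (adjusted p up to 0.103). In that list CDH1 stood at 0.02, VIM at -0.24 and SNAI1 at 0.22. CDH5, the VE-cadherin gene of the endothelial list, read 3.47, 3.47 and 3.46 and then 4.13, 4.64 and 4.38, a change of 0.92 (SE 0.19, adjusted p = 0.0448), lost without any array but TNF replicate 1 (adjusted p up to 0.225). The other endothelial markers KDR and VWF gave a change of -0.05 and a level of 1.9 on each of the 6 arrays.

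**Figure D4:**
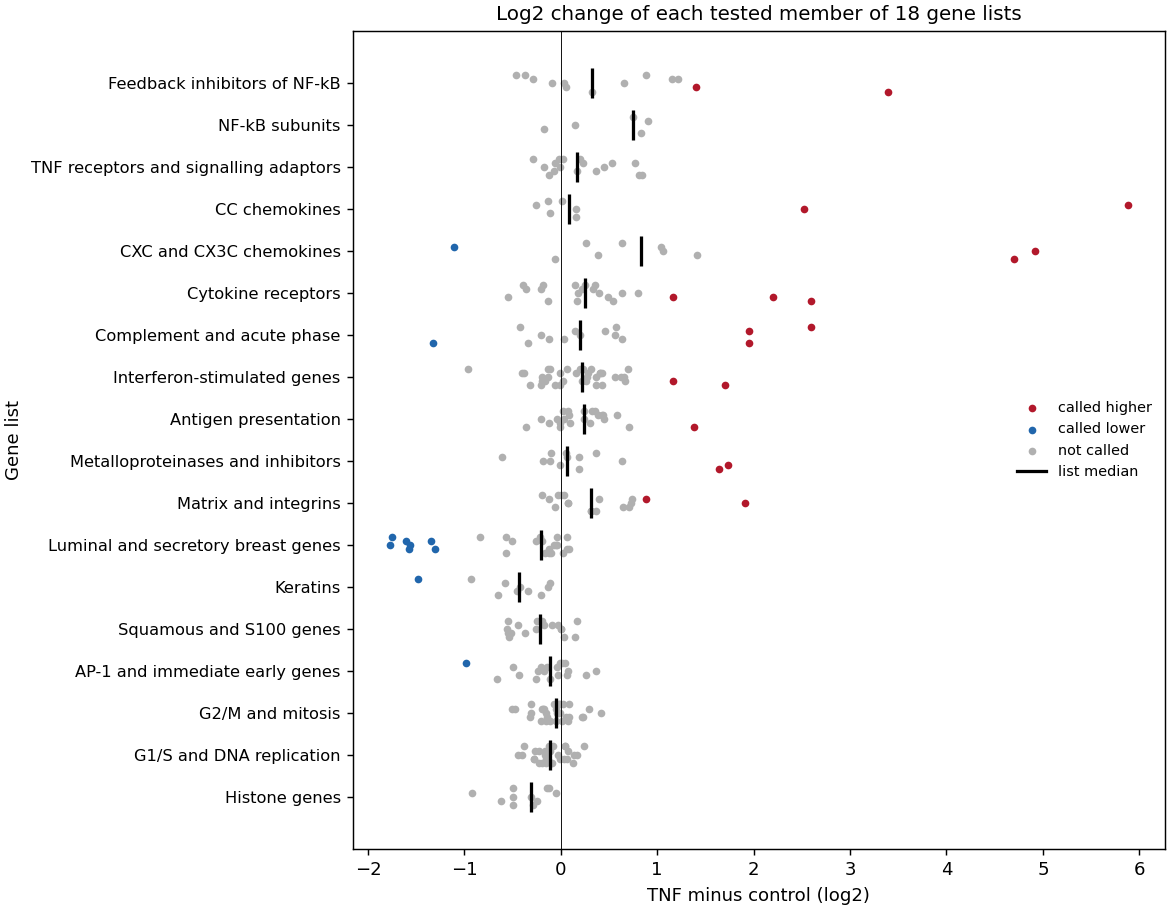
Change (TNF minus control, log2) of each tested member of 18 gene lists, 1 point per gene, red where called higher, blue where called lower and grey where not called, with a black bar at the list median. Most points are grey, a few red points lie far to the right in the chemokine lists, and 7 blue points lie in the luminal list.

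The arrays of TNF plus apigenin and of apigenin alone gave a second TNF effect, in cells that had apigenin in both arms. Its group means come from arrays other than those of the first comparison. The choice of genes tested and the spread behind each p-value came from all 11 arrays, so the calls are not independent. With apigenin in both arms limma called 84 genes higher (0.529%) and 7 lower (0.0441%), and the median change over all genes was 0.162. Of the 75 genes raised by TNF alone, 73 were also above 0, 31 were called higher, and their median change was 0.96. Of the 36 lowered genes, 15 were below 0, 0 were called by limma, and their median was 0.04. All 36 were already lower with apigenin alone than in control, so this comparison started from a lowered level. Their changes with apigenin alone ran from -2.44 (SPDEF) to -0.08 (RASA4B), against a median of -0.177 over all genes. Both changes use the same control arrays, and the part of this in the second TNF effect was not tested. Apigenin array 1 had the lowest median of the 11 arrays, 3.89, and without it 16 genes were called in both comparisons.

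Among the raised genes the order differed between the comparisons. CXCL8 changed by 4.7 without and 4.26 with apigenin, TNFAIP3 by 3.39 and 3.73, CCL20 by 2.52 and 3.38, NFKBIA by 1.4 and 2.04 and ICAM1 by 1.67 and 1.63. C3 changed by 2.59 and 1.19, PGLYRP4 by 2.67 and 0.95 and IL7R by 2.2 and 0.23. The interaction, which is the TNF effect with apigenin minus the effect without it, was called for 4 of all 15865 genes (0.0252%), and PGLYRP4, IL7R and C3 were not among them (adjusted p = 0.184, 0.0779 and 0.184). CXCL10 was, with 4.92 without and 2.88 with apigenin, a difference of -2.03 (SE 0.27, adjusted p = 0.0183), as was MMP13 with 1.64 and -0.16, a difference of -1.8 (SE 0.26, adjusted p = 0.0261). CLCA2 and STAC2, lowered by TNF alone, were the other two. Leaving out single arrays took the adjusted p of CXCL10 up to 0.0815 (without TNF replicate 2) and that of MMP13 up to 0.21 (without apigenin replicate 1). Quantile normalization, which removes the shift of the medians, put 23 of the 36 lowered genes below 0 in cells with apigenin and called 2 of them.

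**Figure D5:**
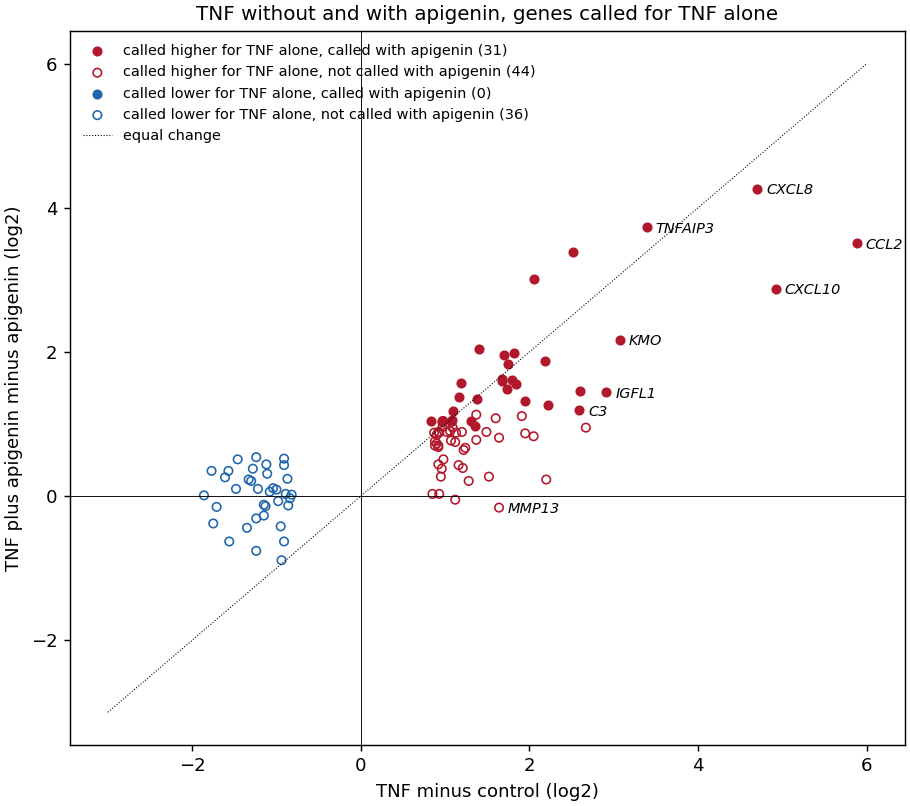
Change of the 111 called genes for TNF minus control (horizontal, log2) and for TNF plus apigenin minus apigenin (vertical, log2), red for genes called higher and blue for genes called lower with TNF alone, filled where also called in cells with apigenin, and a dotted line of equal change. Of the 75 red points 73 lie above 0 and 31 are filled, while the blue points gather around 0 on the vertical axis.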

How the data were processed

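Total RNA of MDA-MB-468 cells was measured on 11 Affymetrix whole-transcript arrays. The deposited log2 values, 1 per probe set, came from Affymetrix Expression Console, which the submitters' processing notes name. The version, algorithm and annotation build it used were not given in the sources used here. No log base is stated, and base 2 was taken from the range of 0.38 to 12.31. The values were used as deposited, so any background correction and normalization in them lies upstream. The number of arrays limits the precision.

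Of 53617 probe sets, 25713 were listed in the platform's gene table, 23871 with 1 symbol and 1842 with several, which were left out. The table can be old, so 22569 were matched by gene number to RefSeq (GRCh38.p14), which updated 90 symbols. Where a gene had more than 1 probe set (632 genes), that of the highest mean stood for it. A gene entered the test when 2 or more of the 11 arrays reached 2.53, the median over all probe set means. limma 3.58.1 in R 4.3.3 (lmFit, eBayes) was fitted with 1 mean for each of 4 groups over all 11 arrays (7 residual degrees of freedom, 14.8 with the prior), which share 1 estimate of the spread. Tests were two-sided, with Benjamini-Hochberg adjustment over all 15865 genes and a threshold of 0.05. The procedure was tested on simulated data. Figures were drawn with Python 3.11.15 and matplotlib 3.10.9.

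The members of the gene lists, and the lists themselves, were chosen with earlier results of these data known. Named were the 25 highest and 20 lowest changes among called genes, called members of the lists, up to 3 further members of a list with the lowest p, and members with a role of their own in the pathway. RN5S338, a small RNA gene among the 20 lowest, was counted without being described. CD47, VTCN1, SEMA3C and the genes after it in the closing section were chosen after their values were seen. Promoters came from RefSeq, and where a gene had several starts (3071 tested genes, 16 called) the start listed first was used. Alternatives were quantile normalization, a median shift, other filters on low values, the control and TNF arrays alone, array weights, a robust trended prior, the mean of all probe sets, a replicate block, and leaving out single arrays.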

Additional observations from a re-analysis of the deposited data

Results flagged for a closer look

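In 4 genes the TNF effect differed between cells with and without apigenin by a test of the difference itself, limma's interaction term, with Benjamini-Hochberg adjustment over all genes. For CLCA2 the change went from -1.77 without apigenin to 0.35 with it, a difference of 2.12 (SE 0.27, adjusted p = 0.0177). For STAC2 it went from -1.3 to 0.21, a difference of 1.52 (SE 0.23, adjusted p = 0.0317). In both genes the arrays with apigenin alone were already as low as the TNF arrays: CLCA2 read 4.93 and 4.65 and STAC2 2.89 and 2.8. For CXCL10 the change went from 4.92 to 2.88, a difference of -2.03 (SE 0.27, adjusted p = 0.0183). For MMP13 it went from 1.64 to -0.16, a difference of -1.8 (SE 0.26, adjusted p = 0.0261), and all 5 arrays with apigenin lay between 1.64 and 2.01, below the probe set median. MMP13 was tested only because of its TNF arrays, the group where it was high.

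No direction changed under any alternative run. Leaving out 1 control or TNF array at a time gave adjusted p-values of 0.0219 to 0.0638 for CLCA2, 0.0313 to 0.0815 for CXCL10, 0.0332 to 0.0958 for MMP13 and 0.0688 to 0.132 for STAC2. Without apigenin replicate 1 those of MMP13 and STAC2 were 0.21 and 0.138. Scaling also mattered: quantile normalization took CLCA2 to 0.0617, and a median shift and array weights took STAC2 to 0.129 and 0.0589.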

How the results depend on the processing

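Against 75 genes called higher and 36 called lower, quantile normalization called 138 higher, a median shift 137 higher, and array weights 116 higher and 105 lower, so that the share of lower calls went from 32.4% to 47.5%. The control and TNF arrays alone called 54 higher and 22 lower. Without 1 array the counts were 40 to 90 higher and 13 to 38 lower, the highest of each without apigenin replicate 1. Genes also called with apigenin, 31, came to 16 to 28 without 1 array. Calls in the gene lists, 47, came to 33 to 38 without 1 control or TNF array. The causes were not tested. With a replicate block 69 and 37 genes were called higher and lower, 46 in the lists and 28 also with apigenin. The deviations of control and TNF arrays of the same number had correlations of 0, 0.06 and 0.28. Those of different numbers had -0.22 to 0.15, so the arrays numbered 3 gave the highest value. The numbers were not taken as pairs in the main fit. The block called 0 interactions (adjusted p of 0.0531 for CLCA2 and CXCL10, 0.07 for MMP13 and 0.072 for STAC2). No called gene changed direction in the 16 settings, and 46 of 111 kept their call in each setting that tested them. Among the 46, MMP13 and KLHL38 were not tested under the stricter filter on low values. Among uncalled genes, TNFAIP8L1 (-0.43 to 0.03) and EPGN (0 to 0.12) reached or crossed 0 when 1 array was left out, and 96 of 2020 values passed the threshold. Signal near background limits genes such as CCL2, CXCL10 and MMP13, whose control levels have no reliable lower value.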

Other observations

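Further genes called with TNF alone lay outside every list. Among those raised, SEMA3C, a secreted guidance factor, read 6.41, 6.21 and 6.39 in control and 7.83, 8.09 and 8.01 with TNF, and rose by 1.64 (SE 0.19, 3.11-fold, adjusted p = 0.000229). SLC2A12, a glucose transporter, read 4.2, 4.48 and 4.29 and then 5.6, 5.74 and 5.68, and rose by 1.35 (SE 0.16, 2.55-fold, adjusted p = 0.000362). In both genes the arrays of each group lay close together and the groups stood clear of each other. CHI3L2, a chitinase-like secreted protein, rose by 1.52 (SE 0.23, 2.87-fold, adjusted p = 0.00298), and changed by 0.27 (adjusted p = 0.643) in cells with apigenin. These 3 calls held without any 1 control or TNF array.

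CLDN8, a tight junction claudin, rose by 1.6 (SE 0.28, 3.02-fold, adjusted p = 0.0112), a call lost without control replicate 2, TNF replicate 2 or TNF replicate 3 (adjusted p up to 0.0706). UGCG, which makes glucosylceramide, rose by 0.98 (SE 0.2, 1.97-fold, adjusted p = 0.0392), and OPTN, a ubiquitin-binding adaptor, by 0.92 (SE 0.19, 1.89-fold, adjusted p = 0.0364). Their calls were lost without any array but control replicate 3 for UGCG and without any 1 of the 6 arrays for OPTN (adjusted p up to 0.186 and 0.18).

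Among the lowered genes, SELENOP, a selenium carrier protein, read 5.05, 5.11 and 5.1 in control and 4.2, 4.12 and 3.95 with TNF, and fell by 1 (SE 0.16, adjusted p = 0.00697). The arrays of both groups were tight, and the call was lost without TNF replicate 3 alone among the 6 (adjusted p = 0.056). TMPRSS4, a membrane serine protease, fell by 1.04 (SE 0.2, 2.05-fold, adjusted p = 0.0265), ANO1, a calcium-activated chloride channel, by 0.89 (SE 0.17, 1.85-fold, adjusted p = 0.0231), and ZNF750, a regulator of epidermal differentiation, by 0.86 (SE 0.17, 1.82-fold, adjusted p = 0.0355). The calls of TMPRSS4 and ZNF750 were lost without any 1 of the 6 arrays (adjusted p up to 0.107 and 0.164), and that of ANO1 without any but control replicate 2 (up to 0.146).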
